A study of Mus musculus with 12 samples.

Results

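The 10 endothelial genes Pecam1, Cdh5, Kdr, Flt1, Tek, Emcn, Cldn5, Vwf, Eng and Plvap were followed in bulk RNA-seq of Pdgfra+ (CD140a+) cells sorted by flow cytometry from mouse lung. They were chosen by name as genes known for blood vessel lining cells, and all 10 were found among the 40760 genes counted. The 12 libraries formed 4 groups of 3, WT and Pear1-/- mice given vehicle and WT and Pear1-/- mice given bleo, where bleo is bleomycin, an agent that scars the lung when given through the airway. All mice were male, and the methods give a C57BL/6 background and an age of 8 to 12 weeks for the study's experiments in general. Pear1-/- mice carried a knockout-first allele in every cell of the body, with a gene-trap cassette inserted into an intron of Pear1, the gene of platelet endothelial aggregation receptor 1. The dose and day of bleo for these libraries, and the number of mice behind each, are not given in the sources used here, so every p-value below measures only the spread between these libraries.

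Endothelial cells line every vessel, and in the lung they form the capillary bed through which gas is exchanged. Kdr and Flt1 encode the receptors VEGFR2 and VEGFR1 for vascular endothelial growth factor (VEGF), of which VEGFR2 carries most of the growth signal and VEGFR1 binds the ligand tightly while signalling weakly. Tek encodes Tie2, the receptor for the angiopoietins, and Eng encodes endoglin, a co-receptor for ligands of the TGF-beta family. Pecam1 (CD31), Cdh5 (VE-cadherin) and Cldn5 (claudin-5) belong to the contacts between endothelial cells, Vwf encodes von Willebrand factor, Plvap a protein of the diaphragms of fenestrae and caveolae, and Emcn the sialomucin endomucin. Several of these genes are known outside the endothelium too, such as Pecam1 and Tek in some leukocytes, Vwf in megakaryocytes and Eng in fibroblasts and macrophages.

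Kdr and Flt1 both lie on the minus strand of chromosome 5, Kdr at 75932827 to 75978458 and Flt1 at 147561604 to 147726011 (GRCm38), and their changes with bleo are set side by side in what follows. The 250 bases before the start of each, and of Tek, are shown from RefSeq (GRCm38.p6), because Kdr and Tek had the largest falls with bleo and Flt1 had changes of opposite sign in the 2 genotypes. RefSeq windows were held for 6 of the 10 genes. Capitals mark GGAAG or its reverse complement CTTCC, the short core that ETS-family transcription factors of endothelium are known to bind.

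Kdr upstream window, minus strand of chr5:75978456-75978705: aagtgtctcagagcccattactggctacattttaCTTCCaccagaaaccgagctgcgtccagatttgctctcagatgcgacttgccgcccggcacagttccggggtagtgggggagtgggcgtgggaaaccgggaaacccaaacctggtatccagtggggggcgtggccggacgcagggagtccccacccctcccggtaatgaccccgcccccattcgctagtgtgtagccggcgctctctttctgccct
Flt1 upstream window, minus strand of chr5:147726012-147726261: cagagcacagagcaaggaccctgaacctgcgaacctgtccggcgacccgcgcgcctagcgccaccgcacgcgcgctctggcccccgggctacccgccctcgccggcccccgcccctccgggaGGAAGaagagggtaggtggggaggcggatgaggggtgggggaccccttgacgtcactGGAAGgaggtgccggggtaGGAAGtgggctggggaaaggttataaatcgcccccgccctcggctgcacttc
Tek upstream window, plus strand of chr4:94739039-94739288: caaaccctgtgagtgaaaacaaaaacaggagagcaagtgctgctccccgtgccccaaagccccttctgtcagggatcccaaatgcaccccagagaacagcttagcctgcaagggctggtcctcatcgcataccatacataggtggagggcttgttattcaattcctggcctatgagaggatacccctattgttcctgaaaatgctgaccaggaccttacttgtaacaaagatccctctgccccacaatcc

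Counted on both strands, the GGAAG core was present 3 times before Flt1, 1 time before Kdr and 0 times before Tek. Emcn and Eng held it 2 times each and Cldn5 0 times. At least 1 match was found in 64.1% of the 32851 windows of this length in the table, and 3 or more in 10.7%, so these letters are common before mouse genes. ACAAT, a SOX-type core, matched 2 times before Tek, 1 time before Emcn and 0 times before Kdr, Flt1, Cldn5 and Eng. Of all windows 27.7% held it at least 1 time and 6.59% held it 2 or more times.

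Sequencing gave between 6702948 and 10447101 counted reads per library, and each of the 10 genes had between 94 and 2228 reads in every library, far above the floor of 3 counts. Pear1 itself stood at 547 ± 28.8 (SD, n = 3) in WT vehicle and 520 ± 24.0 in Pear1-/- vehicle in normalized counts, and counts per gene cannot check an allele that truncates the transcript, so the genotype is that of the label. In bleo mice it lay between 239 and 266 in WT and between 344 and 372 in Pear1-/- mice. WT vehicle replicate 2 stood apart from its group. Counting noise alone would give a chi-square of 1 per degree of freedom between a pair of libraries, and it was 21.2 and 21.8 between replicate 2 and replicates 1 and 3, against 1.58 between those and at most 4.82 within any other group. It had 10915 of the 40760 genes at 0, against 5288 and 4876 in the other WT vehicle libraries and 11335 to 13058 in Pear1-/- vehicle. Whether this library is mixed or mislabelled was not tested, so every WT vehicle mean and every comparison with WT vehicle carries that limit. The counts of the 10 genes that passed, and the members' values that moved most, are also given without it.

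All 10 endothelial genes were detected in all 12 Pdgfra+ libraries, 3 of them at levels per length as high as, or nearly as high as, that of the sort marker. Per kilobase of exon, Cldn5 reached 72.3 ± 15.4 CPM (SD, n = 3) in WT vehicle, Plvap 51.8 ± 5.42 and Eng 48.8 ± 9.67, beside 51.3 ± 3.84 for Pdgfra. Pecam1 and Tek followed at 16.5 ± 1.78 and 15.5 ± 1.30 CPM per kilobase. Cdh5, Vwf, Kdr, Flt1 and Emcn lay between 2.68 and 4.95 on the same scale. All 3 WT vehicle libraries had more Cldn5 than Plvap or Eng, whereas Plvap and Eng overlapped, as did Pecam1 and Tek, Cdh5 and Vwf, and Flt1 and Emcn. The leukocyte gene Ptprc (CD45) stood at 20.3 ± 2.85 CPM per kilobase in WT vehicle and the epithelial gene Epcam at 7.67 ± 1.25. In WT bleo Pdgfra itself stood at 15.4 ± 0.375 CPM per kilobase and Ptprc at 47.2 ± 0.554. The log2 fold change of Pdgfra from WT vehicle to WT bleo was -1.74, a larger fall than in any of the 10 genes. In Pear1-/- mice Pdgfra had 46.6 ± 0.386 CPM per kilobase with vehicle and 26.8 ± 0.229 with bleo. In a bulk sample fewer endothelial cells and less RNA per cell cannot be told apart, and neither can endothelial RNA and the same genes expressed by the Pdgfra+ cells.

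The order of levels per length differed between vehicle and bleo. Cldn5 led in Pear1-/- vehicle with 89.7 ± 8.67 CPM per kilobase, followed by Plvap with 61.0 ± 6.02. In WT bleo Plvap led with 42.0 ± 3.41 and Cldn5 came second with 35.2 ± 2.06, and in Pear1-/- bleo they had 48.4 ± 2.29 and 43.4 ± 2.98. Kdr moved from the eighth place in both vehicle groups to the last in both bleo groups, at 1.24 ± 0.082 CPM per kilobase in WT bleo and 1.16 ± 0.0512 in Pear1-/- bleo. Eng and Pecam1 followed the first 2 in that order in all 4 groups.

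**Figure D1:**
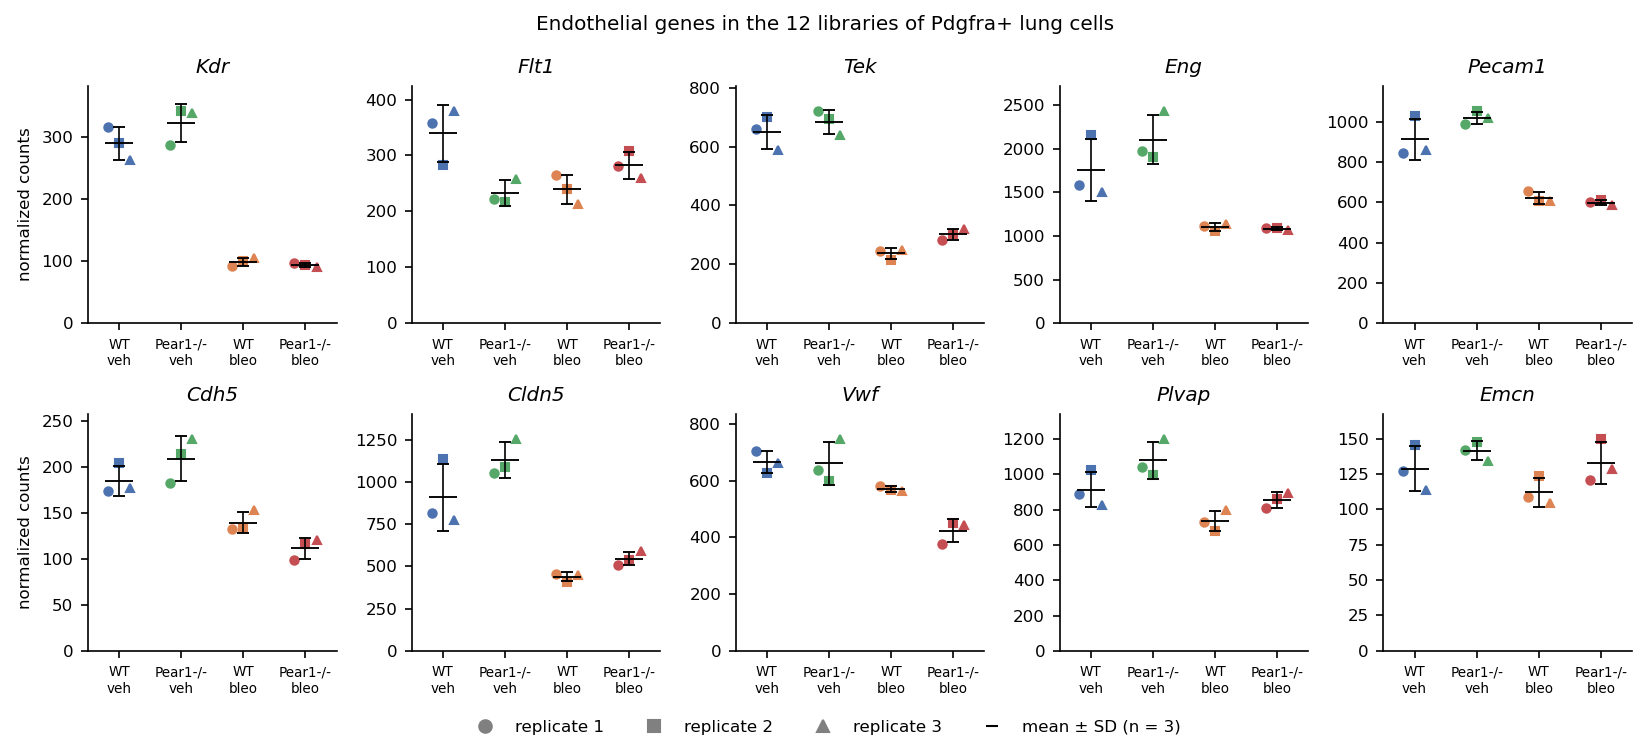
Normalized counts (deposited counts divided by the library's size factor) of the 10 endothelial genes in each of the 12 libraries, with 1 panel per gene and a y axis from 0. Symbols are replicates 1 to 3, and bars are the mean ± SD of 3 libraries. Kdr, Tek, Cldn5, Eng, Pecam1, Cdh5 and Vwf lay lower in all 6 bleo libraries than in all 6 vehicle libraries, while Emcn overlapped between vehicle and bleo in both genotypes.

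The first comparison asked how bleo changed these genes in WT mice. Of the 10 genes, 8 were lower in WT bleo than in WT vehicle and 0 were higher at an adjusted p under 0.05, with edgeR's quasi-likelihood test and Benjamini-Hochberg adjustment over 17418 genes. Of all genes tested, 36.6% were lower and 31.4% higher. The median log2 fold change of the 10 genes was -0.51, beside -0.071 over all genes. Without WT vehicle replicate 2, 7 of the 10 were lower, beside 44.7% of all genes lower and 31.7% higher, and the medians were -0.40 for the 10 genes and -0.21 over all genes.

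Kdr and Tek, which encode receptors for VEGF and the angiopoietins, fell most. Kdr had 315, 290.2 and 262 normalized counts in WT vehicle and 91.8, 99.9 and 104 in WT bleo. The groups were far apart, with a log2 fold change of -1.54 (SE 0.106, adjusted p = 5.94e-09). Tek had 659.7, 700.1 and 587 normalized counts in WT vehicle and 246, 215 and 249 in WT bleo, a log2 fold change of -1.44 (SE 0.089, adjusted p = 1.6e-09). Flt1, the other VEGF receptor, had 359, 282 and 379 normalized counts in WT vehicle and 265, 239.7 and 214 in WT bleo. Its fall was smaller, with a log2 fold change of -0.49 (SE 0.121, adjusted p = 0.00225), and the lowest vehicle library lay close to the highest bleo library. Eng had 1591, 2163 and 1510.0 normalized counts in WT vehicle and 1114, 1057 and 1141 in WT bleo. Its log2 fold change was -0.66 (SE 0.119, adjusted p = 0.000176), and replicate 2 was the high vehicle library. Without that library the log2 fold changes were -1.47 for Kdr, -1.32 for Tek, -0.54 for Flt1 and -0.41 for Eng, and all 4 passed.

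Among the genes of endothelial contacts, Cldn5 changed most. Cldn5 had 816, 1137 and 775 normalized counts in WT vehicle and 458, 410.0 and 448 in WT bleo, a log2 fold change of -1.04 (SE 0.124, adjusted p = 2.87e-06). Pecam1 had 846, 1029.9 and 859.8 normalized counts in WT vehicle and 658, 604 and 606 in WT bleo. All bleo libraries lay under all vehicle libraries, with a log2 fold change of -0.54 (SE 0.079, adjusted p = 2.3e-05). Cldn5 and Pecam1 still passed when WT vehicle replicate 2 was left out, at -0.78 and -0.38. Cdh5 had 173, 204 and 177 normalized counts in WT vehicle and 132, 134 and 153 in WT bleo. Its log2 fold change of -0.40 (adjusted p = 0.00778) became -0.26 without WT vehicle replicate 2 and no longer passed (adjusted p = 0.0674).

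The remaining genes differed least. Plvap, with 829 to 1024 normalized counts in WT vehicle and 681 to 797 in WT bleo, differed by -0.30 on the log2 scale (adjusted p = 0.0104). Without WT vehicle replicate 2 it was -0.15 and did not pass (adjusted p = 0.0833). Vwf had 703, 627 and 664 normalized counts in WT vehicle and 582, 567 and 562 in WT bleo. These groups did not overlap, but the log2 fold change of -0.21 missed the threshold (adjusted p = 0.0549). It passed with library sizes alone (-0.31, adjusted p = 0.0136) and in a fit of these 2 groups only (-0.24, adjusted p = 0.0196), and without WT vehicle replicate 2 it was -0.18 and passed (adjusted p = 0.042). Emcn had 113 to 145 and 104 to 123 normalized counts, with a log2 fold change of -0.19 (adjusted p = 0.189, 95% interval -0.44 to 0.055), and passed with library sizes alone (-0.28, adjusted p = 0.0490). Leaving out WT bleo replicate 1 or replicate 2 gave 6 lower genes in place of 8, with Cdh5 and Plvap lost (adjusted p between 0.0620 and 0.147).

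The same comparison in Pear1-/- mice gave 8 genes lower in bleo and 1 higher, beside 33.4% of all genes lower and 28.9% higher. The median log2 fold change of the 10 genes was -0.83, beside -0.048 over all genes. Kdr fell from 287, 340.5 and 338 normalized counts to 96.8, 93.7 and 89.6, a log2 fold change of -1.78 (SE 0.104, adjusted p = 1.37e-09). Tek fell from 719.7, 694 and 638 to 283, 303 and 318, a log2 fold change of -1.18 (SE 0.086, adjusted p = 1.77e-08). In both, the libraries of each group lay close together and the groups far apart.

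Cldn5, Eng, Pecam1 and Cdh5 fell as well in Pear1-/- bleo. Cldn5 had 1052, 1087 and 1255 normalized counts in Pear1-/- vehicle and 509.7, 541 and 590.0 in Pear1-/- bleo, a log2 fold change of -1.04 (SE 0.121, adjusted p = 2.86e-06). Eng had 1979, 1910.1 and 2431 and then 1097, 1091 and 1070.4, a log2 fold change of -0.95 (SE 0.119, adjusted p = 6.29e-06). Vehicle replicate 3 was the high library for both. Pecam1 had 989.5, 1051 and 1017 normalized counts in Pear1-/- vehicle and 599, 611 and 584 in Pear1-/- bleo, with a log2 fold change of -0.76 (SE 0.078, adjusted p = 7.63e-07). Cdh5 had 183, 214 and 230.3 and then 98.6, 116 and 120.1, with a log2 fold change of -0.90 (SE 0.118, adjusted p = 9.82e-06). For each of these genes the bleo libraries were all lower than the vehicle libraries.

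Vwf, which did not pass in WT mice, had 638, 597 and 746 normalized counts in Pear1-/- vehicle and 376, 450.4 and 443 in Pear1-/- bleo, a log2 fold change of -0.64 (SE 0.092, adjusted p = 2.7e-05). Plvap had 998 to 1199 and 808 to 897 normalized counts, a log2 fold change of -0.33 (adjusted p = 0.00596), and it did not pass without Pear1-/- vehicle replicate 3 (adjusted p = 0.0539). Flt1 went the other way. It had 222, 217 and 259 normalized counts in Pear1-/- vehicle and 281, 308 and 259 in Pear1-/- bleo, so that the highest vehicle and lowest bleo libraries were almost equal. The log2 fold change of 0.29 was just past the threshold (adjusted p = 0.0486), and it did not pass with DESeq2's Wald test (adjusted p = 0.0666) or with limma (adjusted p = 0.0954), nor without any one of 7 libraries, namely all 3 of WT bleo and replicates 1 and 2 of both Pear1-/- groups (adjusted p between 0.0587 and 0.212). Emcn differed by -0.083 on the log2 scale (adjusted p = 0.562, 95% interval -0.32 to 0.15).

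**Figure D2:**
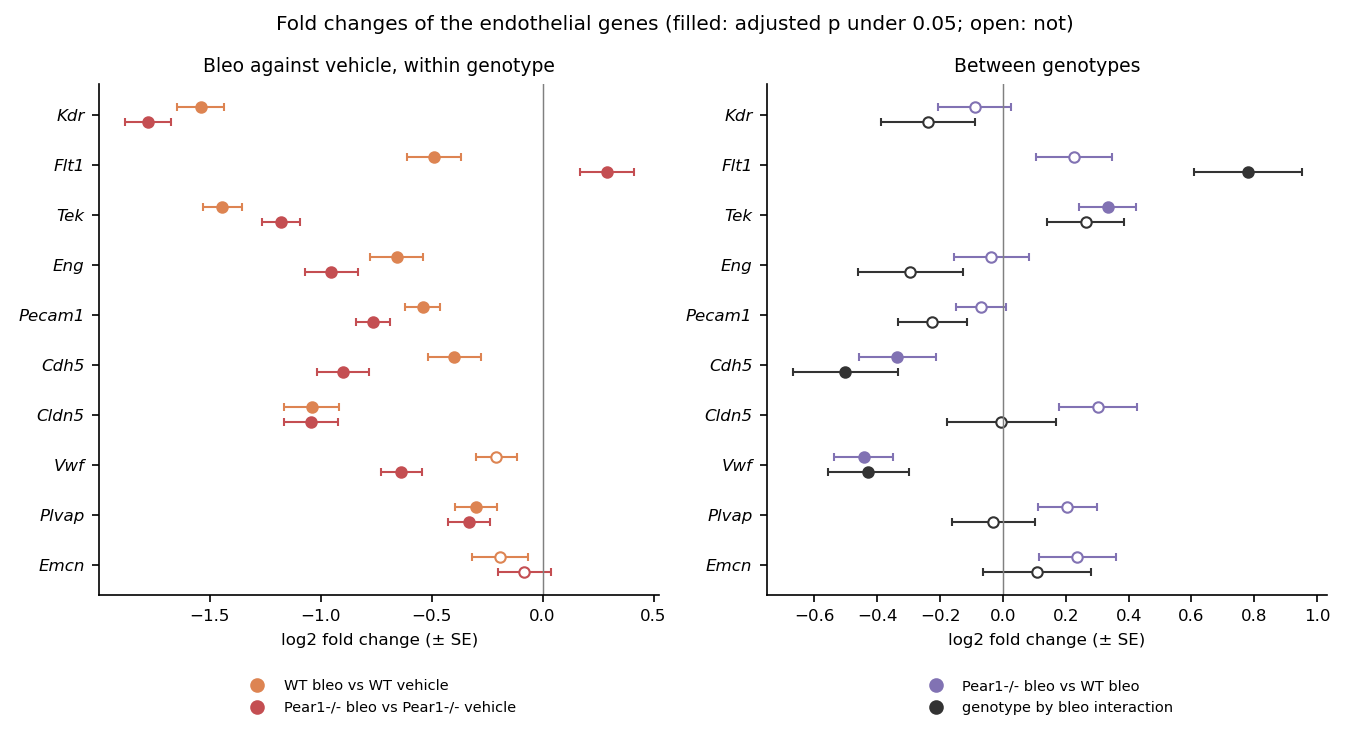
Log2 fold changes ± SE of the 10 endothelial genes from edgeR over all 12 libraries, with bleo against vehicle within each genotype on the left, and Pear1-/- bleo against WT bleo and the genotype by bleo interaction on the right. Filled points have an adjusted p under 0.05 and open points do not, and the x axes of the panels differ. On the left, Kdr, Tek and Cldn5 lie near or below -1 in both genotypes, and Flt1 alone lies on opposite sides of 0, at -0.49 in WT and 0.29 in Pear1-/- mice.

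The change with bleo was then compared between genotypes by the interaction, the log2 fold change in Pear1-/- mice minus that in WT mice. It passed for Flt1, with 0.78 (SE 0.171, adjusted p = 0.00247), for Cdh5, with -0.50 (SE 0.167, adjusted p = 0.0282), and for Vwf, with -0.43 (SE 0.130, adjusted p = 0.0176). This made 1 gene higher and 2 lower, beside 17.9% of all genes higher and 19.1% lower. Kdr had -0.24 (adjusted p = 0.231, 95% interval -0.53 to 0.055) and Cldn5 -0.0046 (adjusted p = 0.9998, 95% interval -0.35 to 0.34). Without WT vehicle replicate 2, 6 genes passed, 1 higher and 5 lower, beside 20.4% of all genes higher and 26.0% lower. Flt1, Cdh5 and Vwf were among them, and Eng (-0.56), Pecam1 (-0.41) and Cldn5 (-0.28) were added. Among the 10412 genes whose mean log2 CPM was 3 or more, which include all 10 endothelial genes, 2043 were then higher and 4238 lower. Their median interaction was -0.18, beside -0.30 for the 10 genes, so a lower value was common among genes at such levels. Cdh5 no longer passed without any one of 6 other libraries (adjusted p between 0.0509 and 0.0716). With library sizes alone in place of TMM, 2 genes, Flt1 and Tek, were higher and 0 lower, and of all genes 4053 were higher and 2490 lower in place of 3110 and 3332.

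A ratio of 2 genes within a library does not depend on how libraries are scaled. Flt1 had 0.972 to 1.45 counts for each count of Kdr in WT vehicle and 0.638 to 0.772 in Pear1-/- vehicle. The ratio was 2.05 to 2.89 in WT bleo and 2.89 to 3.28 in Pear1-/- bleo. The vehicle groups did not overlap, all bleo libraries were above all vehicle libraries, and the bleo groups met at their edges. The ratio of Tek to Pecam1 counts was 0.628 to 0.779 over both vehicle groups, 0.356 to 0.411 in WT bleo and 0.473 to 0.545 in Pear1-/- bleo. For Plvap to Pecam1 it was 0.964 to 1.05 in WT vehicle, 0.950 to 1.18 in Pear1-/- vehicle, 1.11 to 1.31 in WT bleo and 1.35 to 1.54 in Pear1-/- bleo. Pear1-/- vehicle overlapped both WT vehicle and WT bleo, and Pear1-/- bleo lay above the other 3 groups. The endothelial genes did not move by 1 common factor between groups.

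**Figure D3:**
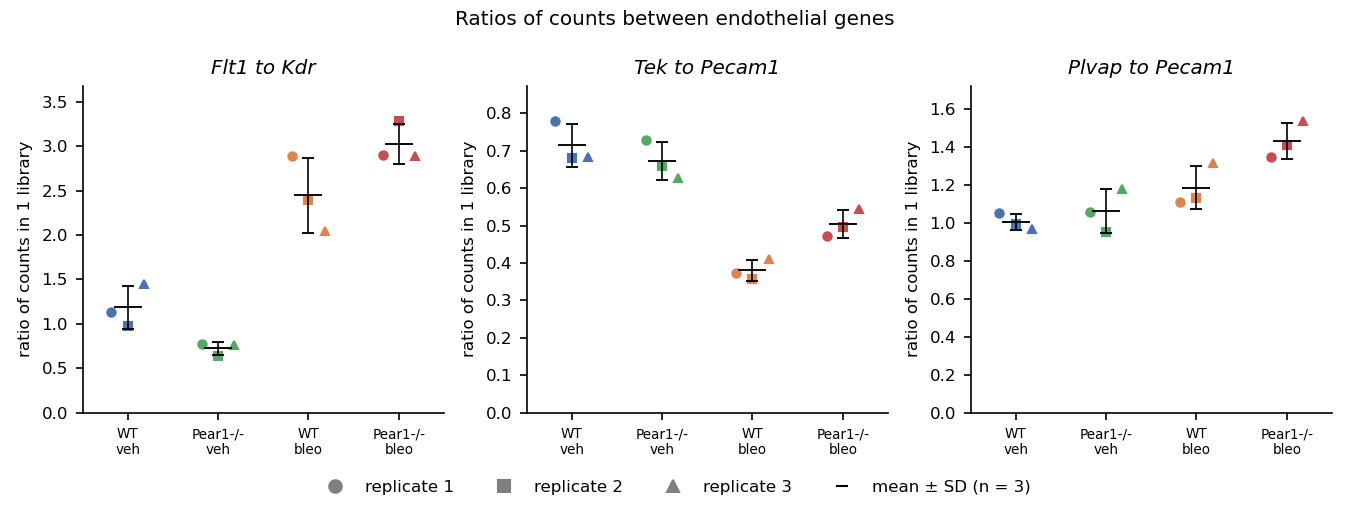
Ratio of the counts of 2 endothelial genes within each library, for Flt1 to Kdr, Tek to Pecam1 and Plvap to Pecam1, by group, on y axes from 0 that differ between panels. Symbols are replicates 1 to 3, and bars are the mean ± SD of 3 libraries. The ratio of Flt1 to Kdr lies at or above 2.05 in every bleo library and at or below 1.45 in every vehicle library, and that of Tek to Pecam1 is lowest in WT bleo.

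Directly between the bleo groups, Tek was higher in Pear1-/- bleo than in WT bleo, and Vwf and Cdh5 were lower, which is 1 gene higher and 2 lower beside 22.1% of all genes higher and 23.9% lower. Tek stood at 283, 303 and 318 against 246, 215 and 249 normalized counts, a log2 fold change of 0.33 (SE 0.091, adjusted p = 0.00734). Vwf stood at 376, 450.4 and 443 against 582, 567 and 562, a log2 fold change of -0.44 (SE 0.093, adjusted p = 0.0011). Every Pear1-/- library lay beyond every WT library for both genes. Cdh5 had 98.6, 116 and 120.1 against 132, 134 and 153 normalized counts, a log2 fold change of -0.34 (adjusted p = 0.0351), but it did not pass with DESeq2 (adjusted p = 0.0805) or without any one of 7 libraries, the 6 of bleo and Pear1-/- vehicle replicate 2 (adjusted p between 0.0562 and 0.177).

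The other 7 genes did not pass between the bleo groups. Eng (log2 fold change -0.036, 95% interval -0.27 to 0.20), Pecam1 (-0.070, -0.23 to 0.085) and Kdr (-0.090, -0.32 to 0.14) overlapped between the groups. Cldn5, with 509.7 to 590.0 against 410.0 to 458 normalized counts, did not overlap but had a log2 fold change of 0.30 with adjusted p = 0.0585. Plvap (0.20, adjusted p = 0.0876), Flt1 (0.22, adjusted p = 0.142) and Emcn (0.24, adjusted p = 0.127) did not pass either. Without WT vehicle replicate 2, which is in neither group but in the shared fit and filter, 6 genes passed, 4 higher (Tek, Cldn5, Plvap and Flt1) and 2 lower, beside 23.3% of all genes higher and 25.9% lower. Without WT bleo replicate 2, or Pear1-/- bleo replicate 2 or 3, only Vwf passed, and Tek then had an adjusted p between 0.0523 and 0.0966.

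In vehicle mice Flt1 was the only one of the 10 genes to pass between genotypes, and its call was lost without any one of 11 libraries (adjusted p between 0.0542 and 0.189). Flt1 stood at 222, 217 and 259 normalized counts in Pear1-/- vehicle against 359, 282 and 379 in WT vehicle, a log2 fold change of -0.55 (SE 0.122, adjusted p = 0.0388), the 1 gene lower beside 0 higher, where 3.65% of all genes were lower and 0.855% higher. The other 9 genes had log2 fold changes between -0.015 (Vwf) and 0.31 (Cldn5), with adjusted p between 0.101 and 0.922. Without WT vehicle replicate 2, 6 genes were higher and 1 lower, beside 25.5% of all genes higher and 29.7% lower. Among the 10412 genes whose mean log2 CPM was 3 or more, which include all 10 endothelial genes, 4524 were higher and 1154 lower. Their median log2 fold change was 0.18, beside 0.31 for the 10 genes, so a rise was common among genes at such levels. Cldn5 then had 0.57 (adjusted p = 3.35e-08), Eng 0.51 (adjusted p = 1.35e-07), Plvap 0.40, Pecam1 0.32, Cdh5 0.32 and Tek 0.20, and Flt1 had -0.60 (adjusted p = 4.56e-06). Replicate 2 had 1137 normalized counts of Cldn5 and 2163 of Eng, inside the Pear1-/- vehicle ranges of 1052 to 1255 and 1910.1 to 2431, whereas replicates 1 and 3 lay below them. For Flt1, its 282 normalized counts were the lowest of its group but above all 3 Pear1-/- vehicle libraries. Without any other 1 of the 12 libraries, 0 of the 10 genes passed in edgeR's test, with 1 to 6 of them at an unadjusted p under 0.05. With all libraries 4 genes had an unadjusted p under 0.05, DESeq2 called 1 gene and limma 0. With library sizes alone in place of TMM, which moved the median of all genes from -0.0039 to -0.15, Tek and Emcn turned to -0.074 and -0.013, and of all genes 131 were higher and 1812 lower in place of 149 and 635.

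**Figure D4:**
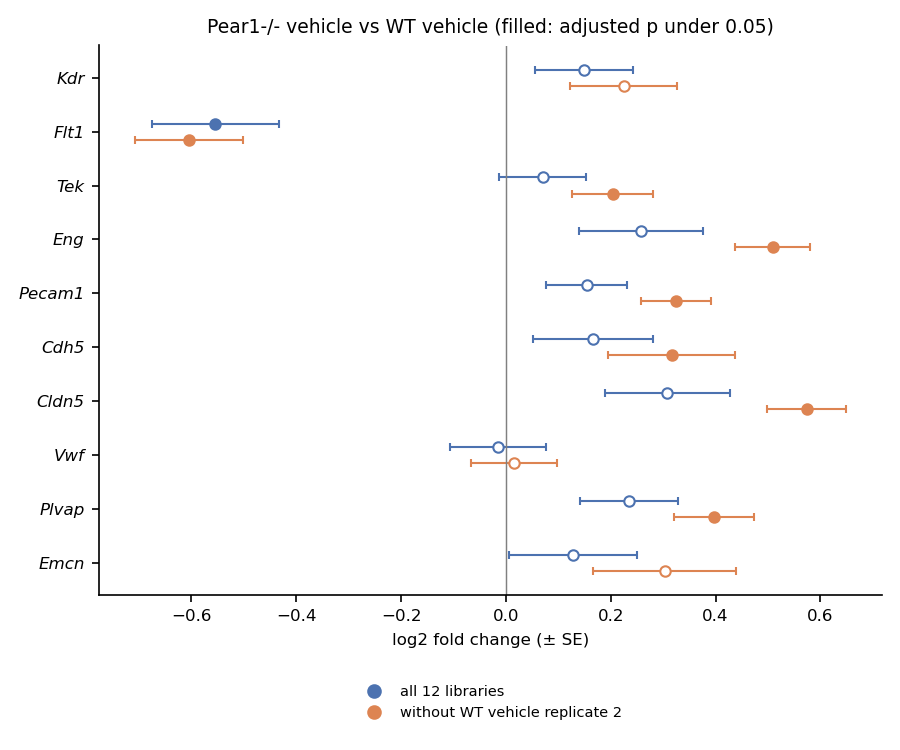
Log2 fold changes ± SE of the 10 endothelial genes between Pear1-/- vehicle and WT vehicle, from edgeR with all 12 libraries (blue) and without WT vehicle replicate 2 (orange). Filled points have an adjusted p under 0.05. With all libraries only Flt1, at -0.55, is filled, and without replicate 2 another 6 genes are, between 0.20 and 0.57. With library sizes alone in place of TMM, Tek and Emcn turned to the other side of 0.

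How alike the 10 genes were over the 12 libraries was measured as the root-mean-square distance between standardised log2 CPM profiles. Cldn5, Kdr, Pecam1, Tek and Eng lay between 0.222 and 0.248 from the mean profile of the 10, and Cdh5 and Plvap at 0.438 and 0.542. Vwf (0.705), Emcn (0.910) and Flt1 (1.26) followed the mean least. The closest pair was Pecam1 and Eng (0.236) and the least alike were Flt1 and Plvap (1.44). Among other genes whose mean log2 CPM was 3 or more, those nearest to the mean profile were Cyp2s1 (0.118), Tef, Kank1, Chil1, Lamb2, Nr4a1, Htra3, Ly6c2, Ece1 and Tspan11 (0.155), of which 0 were in any endothelial list used here. These nearest genes were picked by that likeness, so a fall with bleo in them is no separate result. Among them, Lamb2, which encodes a laminin subunit of basement membranes, had 1730.5 ± 156 normalized counts in WT vehicle and 645 in WT bleo.

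A list of 24 other genes known for endothelium was read beside the 10. Of all genes, 36.6% were lower and 31.4% higher with bleo in WT mice (median -0.071), and 33.4% lower and 28.9% higher in Pear1-/- mice (median -0.048), against which the counts of this and the shorter lists below are to be read. In WT bleo, 19 of the 24 were lower and 0 higher than in WT vehicle, with a median log2 fold change of -0.82, and 18 were lower and 1 higher, with a median of -0.62, when WT vehicle replicate 2 was left out, beside 44.7% of all genes lower, 31.7% higher and a median of -0.21. Tmem100 fell most (-2.07), and She (-1.37), Clec14a (-1.28) and Ramp2 (-1.20), which encodes a partner of the adrenomedullin receptor, followed. In Pear1-/- mice 18 were lower and 3 higher, with a median of -0.56. Tmem100 (-2.03), Ramp2 (-1.40) and the sphingosine 1-phosphate receptor gene S1pr1 (-1.11) fell most. The 3 higher genes were Ecscr (0.98) and the transcription factor genes Erg (0.79) and Sox17 (0.72), and the last 2 are named here after their values were seen.

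Between the bleo groups, 14 of these 24 genes were higher in Pear1-/- bleo and 3 lower, with a median of 0.33, beside 22.1% of all genes higher, 23.9% lower and a median of -0.013. Erg, an ETS-family factor of endothelial identity, had 102 ± 19.3 normalized counts in Pear1-/- bleo and 46.0 ± 4.50 in WT bleo, a log2 fold change of 1.14 (adjusted p = 5.9e-05). Sox17 had 93.8 ± 9.36 and 48.7 ± 2.82 (log2 fold change 0.93), and Ecscr 242 ± 10.9 and 122 ± 11.7 (0.98). Erg (1.38) and Sox17 (1.13) also led the interaction, for which 9 genes were higher and 2 lower, beside 17.9% and 19.1% of all genes. Without WT vehicle replicate 2 these were 8 and 6, beside 20.4% and 26.0% of all genes. Among the 10412 genes whose mean log2 CPM was 3 or more, 2043 were then higher and 4238 lower. In the vehicle comparison 0 of the 24 passed edgeR's test and limma's and 1 DESeq2's, with 7 at an unadjusted p under 0.05 in edgeR, where 0.855% of all genes were higher and 3.65% lower. Of the 24, 11 were higher and 0 lower without WT vehicle replicate 2, beside 25.5% and 29.7% of all genes. Among the 10412 genes whose mean log2 CPM was 3 or more, 4524 were then higher and 1154 lower.

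The ligands and partners of the receptors were read from a list of 14 genes. With bleo, 4 were higher and 9 lower in WT mice (4 and 8 without WT vehicle replicate 2), and 4 higher and 8 lower in Pear1-/- mice, with medians of -0.50 and -0.40. All 3 angiopoietin genes, which encode ligands of Tie2, fell with Tek in WT mice, Angpt4 by 2.05, Angpt1 by 1.59 and Angpt2 by 1.50 on the log2 scale. In Pear1-/- mice they fell by 1.96, 0.98 and 0.83. Among the VEGF ligands, Pgf, which binds VEGFR1 and not VEGFR2, had a log2 fold change of 1.39 in WT mice and 0.86 in Pear1-/- mice, and Vegfa, the main ligand of VEGFR2, 1.14 and 0.50. Vegfd and Vegfc, ligands of VEGFR3, had -0.72 and -0.66 in WT mice. In Pear1-/- mice Vegfd was higher with bleo, at 0.29 (adjusted p = 0.00237), and Vegfc lower, at -0.45, and the interaction was 1.01 for Vegfd (adjusted p = 3.1e-06) and 0.21 for Vegfc (adjusted p = 0.539).

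Between the bleo groups, 4 of the 14 genes were higher and 4 lower in Pear1-/- bleo, with a median of 0.013, beside 22.1% of all genes higher and 23.9% lower. Vegfd had 648 ± 27.0 normalized counts in Pear1-/- bleo and 364 ± 22.3 in WT bleo, a log2 fold change of 0.82 (adjusted p = 3.18e-07). Vegfc (0.74) and Angpt1 (0.57) were higher too, and Angpt2 had 0.33 (adjusted p = 0.0436). Dll4, a Notch ligand of endothelial tip and arterial cells, was lower, with 13.8 ± 3.52 against 30.2 ± 7.08 normalized counts and a log2 fold change of -1.14 (adjusted p = 0.00568). Vegfa (-0.68), Vegfb (-0.62) and Acvrl1 (-0.45), which encodes the receptor ALK1 that endoglin assists, were lower as well. In the vehicle comparison Nrp2, a neuropilin co-receptor, was the 1 gene that passed (-0.53, adjusted p = 0.0428), with overlapping groups at 543 to 631 normalized counts in Pear1-/- vehicle and 609 to 977 in WT vehicle. limma called 0 of the 14, DESeq2 1, and 4 had an unadjusted p under 0.05 in edgeR. When any one library other than WT vehicle replicate 2 was left out, 0 of all genes passed this comparison in edgeR, with 2955 to 6917 at an unadjusted p under 0.05. There, 4 of the 14 were higher and 2 lower without WT vehicle replicate 2, beside 25.5% and 29.7% of all genes. Among the 10412 genes whose mean log2 CPM was 3 or more, 4524 were then higher and 1154 lower.

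Short lists of markers for kinds of lung endothelium had more genes lower than higher with bleo in both genotypes, which was also so over all genes. Of 6 aerocyte markers, 4 were lower and 0 higher with bleo in WT mice, led by Ednrb, the endothelin receptor B gene (-3.03), and 4 were lower and 1 higher in Pear1-/- mice, with Ednrb at -2.92. Of 5 general capillary markers, 3 were lower and 2 higher in WT mice, and 3 lower and 1 higher in Pear1-/- mice. Their summed level did not fall in WT mice, with 324 to 407 CPM in WT vehicle and 384 to 407 in WT bleo. It was 385 to 425 CPM in Pear1-/- vehicle and 274 to 282 in Pear1-/- bleo. Gpihbp1, which anchors lipoprotein lipase in capillaries, had -0.93 in WT mice and was higher in Pear1-/- bleo than in WT bleo (1.01, adjusted p = 7.76e-05). In that comparison, where 22.1% of all genes were higher and 23.9% lower, 2 of the 5 were higher and 2 lower, with Sema3c at 0.90, Cd36 at -0.97 and Aplnr at -0.54. Of the 6 aerocyte markers 3 were higher and 1 lower there, with Tbx2 at 0.93, Prx at 0.57 and Car4, a carbonic anhydrase gene, at -1.06 (adjusted p = 0.000202). Of 6 arterial markers, 4 were lower and 2 higher in WT mice and 4 lower in Pear1-/- mice. Between the bleo groups 0 arterial markers were higher in Pear1-/- bleo and 2 lower, Dkk2 at -0.92 and Gja4 at -0.63. Venous markers gave 4 lower and 1 higher of 6 in WT mice and 4 lower and 2 higher in Pear1-/- mice, and lymphatic markers 3 lower and 1 higher, and 5 lower and 1 higher. Between the bleo groups 2 venous markers were higher and 1 lower, and 3 lymphatic markers higher and 1 lower. Without WT vehicle replicate 2, WT mice had 4 aerocyte markers lower and 1 higher, and 3 lymphatic markers lower and 2 higher with bleo. Of all genes 44.7% were then lower and 31.7% higher.

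Markers of other cells in the sorted libraries moved with the groups too. The summed level of the 10 endothelial genes was 696 to 852 CPM in WT vehicle, 813 to 926 in Pear1-/- vehicle, 468 to 498 in WT bleo and 483 to 510 in Pear1-/- bleo. That of 23 leukocyte genes was 3059 to 4919, 4765 to 5386, 16488 to 16663 and 7146 to 7364 CPM in the same groups. For 11 epithelial genes it was 4389 to 6324, 5947 to 6994, 1688 to 1720 and 758 to 763 CPM. The leukocyte sum was thus higher, and the endothelial and epithelial sums lower, in every bleo library than in every vehicle library. The sum of 10 fibroblast genes, Pdgfra and 5 collagen genes among them, was 17213 to 19118, 18939 to 19698, 12719 to 12830 and 32680 to 33660 CPM. For 9 pericyte genes it was 365 to 444, 439 to 480, 207 to 222 and 363 to 388 CPM.

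With bleo, 14 of the 23 leukocyte genes were higher and 6 lower in WT mice, and 11 higher and 9 lower in Pear1-/- mice, and between the bleo groups 17 were lower and 1 higher in Pear1-/- bleo, beside 23.9% and 22.1% of all genes. Of the 11 epithelial genes 9 were lower and 2 higher with bleo in WT mice. Of the 10 fibroblast genes 8 were lower and 2 higher in WT mice, and 7 lower and 3 higher in Pear1-/- mice, where Col1a1 had a log2 fold change of 2.18. For 9 pericyte genes 5 were lower and 1 higher in WT mice, and 5 lower and 3 higher in Pear1-/- mice. WT vehicle replicate 2 had the highest endothelial, leukocyte, epithelial, fibroblast and pericyte sums of its group. The part of any of these in the changes of the endothelial genes was not tested. Vwf is also known in platelets and megakaryocytes, and the summed level of 8 platelet genes was 51.1 to 63.7 CPM in WT vehicle, 62.1 to 64.5 in Pear1-/- vehicle, 85.4 to 88.6 in WT bleo and 53.5 to 56.9 in Pear1-/- bleo. Up to 3 of those 8 genes were at or under the floor of 3 counts in a library, and among the 7 that were tested Pf4, known in macrophages too, had a log2 fold change of 2.67 in WT bleo while 6 were lower. An erythroid list of 6 genes summed to 7.84 to 9.14 CPM in WT bleo and to 15.3 to 36.3 over the other groups.

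**Figure D5:**
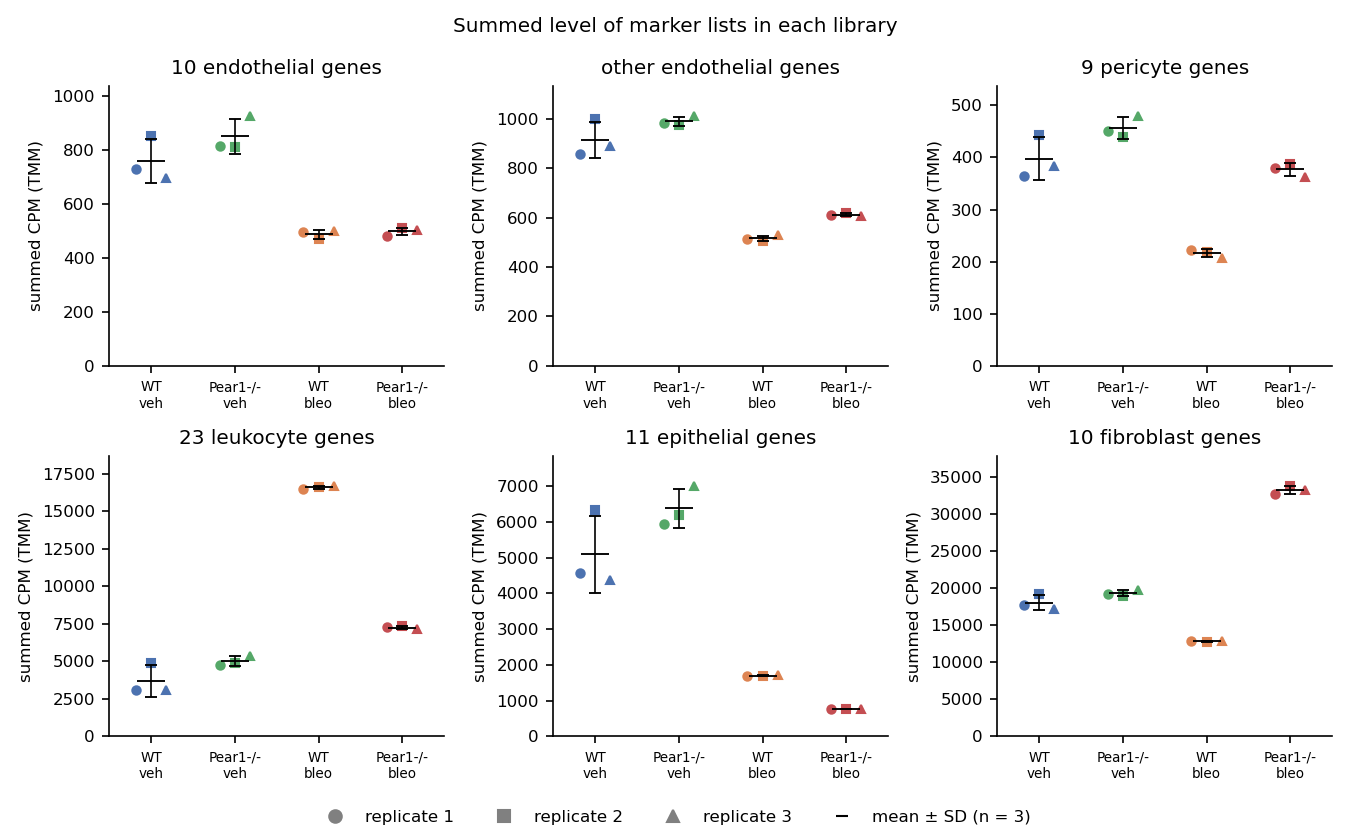
Summed CPM (TMM-scaled) of 6 marker lists in each of the 12 libraries by group, with symbols for replicates 1 to 3, bars for the mean ± SD of 3 libraries, and y axes from 0 that differ between panels. The 10 endothelial genes sum to at most 510 CPM in bleo and at least 696 CPM in vehicle libraries, the leukocyte sum is highest in WT bleo at 16488 to 16663 CPM, and the fibroblast sum is highest in Pear1-/- bleo. In that group 7 of the 10 fibroblast genes were lower than in Pear1-/- vehicle and 3 higher, with Col1a1 at a log2 fold change of 2.18. Of all genes 33.4% were lower and 28.9% higher.

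Eng overlaps Fpgs on the opposite strand by 61 exon bases, and whether the counting used strand is not stated. Over the 12 libraries Fpgs had 1829 reads against 18143 of Eng. The other 9 genes share no exon base with another annotated gene.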

How the data were processed

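Pdgfra+ cells were sorted from mouse lung and sequenced after SMART-Seq v4 amplification in 12 libraries, 3 per group. Per the labels and the methods, reads were aligned to GRCm38 (mm10) with HISAT2 and checked with FastQC. The program that counted reads on genes and its strand setting are not given in the sources used here. The authors deposited raw counts of 40760 genes, and a second table of the same counts divided by 1 size factor per library, a signal on a linear scale called normalized counts here. Totals of 6702948 to 10447101 counts set the precision, and floors cover counting error only.

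Counts were tested with edgeR 4.0.16 (R 4.3.3; quasi-likelihood test, TMM, 1 mean per group over all 12 libraries) on the 17418 genes that passed its filter, with Benjamini-Hochberg adjustment over all of them and a threshold of adjusted p = 0.05. All 10 genes passed the filter. The interaction is the change with bleo in Pear1-/- mice minus that in WT mice. SE is the log2 fold change divided by the root of the F statistic, and 95% intervals are Wald intervals from it. CPM per kilobase is TMM-scaled CPM divided by exon length in GENCODE M21. Alternatives were DESeq2 1.42.0, limma 3.58.1 on log2(normalized counts + 1), library sizes without TMM, no filter, a replicate block, fits of 2 groups only and each library left out. The pipeline was tested on simulated data. Vegfd is listed as Figf in the files.

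The 10 genes were chosen by name, and the members and marker lists were chosen with earlier results of these data known. Named from each list were at most 4 genes per comparison with the largest absolute log2 fold change among those past the threshold whose mean log2 CPM was 2 or more, any gene named to check the sort and the labels (Ptprc, Epcam, Pdgfra and Pear1), any gene of the list of VEGF, angiopoietin and endoglin genes, and the 10 genes nearest to the mean profile. The methods state a moderated test on normalized values, and edgeR was used instead because raw counts were deposited.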

Additional observations from a re-analysis of the deposited data

Results flagged for a closer look

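For 3 of the 10 endothelial genes the change with bleo differed between the genotypes by the interaction term of edgeR's quasi-likelihood test, 1 higher and 2 lower, beside 17.9% of all genes higher and 19.1% lower. Without WT vehicle replicate 2, 1 was higher and 5 lower, beside 20.4% and 26.0% of all genes. Among the 10412 genes whose mean log2 CPM was 3 or more, 2043 were then higher and 4238 lower. Flt1 had an interaction of 0.78 on the log2 scale (adjusted p = 0.00247), with a log2 fold change with bleo of -0.49 in WT and 0.29 in Pear1-/- mice. The latter call (adjusted p = 0.0486) was lost with DESeq2 (0.0666), limma (0.0954) and a replicate block (0.0599), and without any one of 7 libraries. Vwf had -0.43 (adjusted p = 0.0176) and Cdh5 -0.50 (adjusted p = 0.0282), where the log2 fold change with bleo was -0.64 in Pear1-/- and -0.21 in WT mice for Vwf, and -0.90 and -0.40 for Cdh5. In the vehicle groups Flt1 already stood lower in Pear1-/- mice, at 217 to 259 against 282 to 379 normalized counts, whereas in the bleo groups it overlapped, at 259 to 308 against 214 to 265. With library sizes alone in place of TMM, Vwf (adjusted p = 0.154) and Cdh5 (adjusted p = 0.0894) did not pass. DESeq2 called 2 of the 10 genes by the interaction in place of 3, Flt1 among them, beside 34.1% of all genes.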

How the results depend on the processing

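Over the 10 genes and 5 comparisons, 784 recomputed log2 fold changes kept their direction and their side of the threshold, 54 lost the call, 29 gained one and 23 changed sign. The number of the 10 genes called with bleo in WT mice was 8 (68.0% of all genes), and became 10 with library sizes alone (67.0%), 9 in a fit of those 2 groups only (62.5%) and 6 with no filter (47.7%), where Cdh5 and Plvap lost their calls. Between the bleo groups it was 3 (46.0%), and became 5 with library sizes alone (45.7%), 6 in a fit of those 2 groups only (66.0%) and 2 with limma (43.9%). In the vehicle comparison it was 1 (4.50%), and became 4 with no filter (13.8%), and 0 (limma, 3 at an unadjusted p under 0.05) and 0 (edgeR on those 2 groups only, 1 at an unadjusted p under 0.05). The causes were not tested, save that other genes or fewer libraries enter these fits. Leaving out 1 library at a time gave 6 to 8 called genes with bleo in WT mice (63.6% to 76.4% of all genes), 8 to 9 in Pear1-/- mice (50.3% to 68.0%), 1 to 6 between the bleo groups (31.5% to 49.2%), 0 to 7 between the vehicle groups (0% to 55.2%) and 2 to 6 for the interaction (26.1% to 46.4%). The highest counts of the last 3 came without WT vehicle replicate 2. Flt1 in the vehicle comparison lost its call without any one of 11 libraries (adjusted p between 0.0542 and 0.189).

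Changes of sign were limited to values that did not pass. In the vehicle comparison Tek became -0.074 and Emcn -0.013 with library sizes alone, Vwf became 0.084 with no filter, and with 1 library left out Vwf ranged from -0.067 to 0.11. For the interaction, library sizes alone gave 0.14 for Cldn5 and 0.12 for Plvap, and DESeq2 gave 0.0037 for Cldn5. With 1 library left out the interaction ranged from -0.28 to 0.096 for Cldn5, -0.20 to 0.032 for Plvap and -0.074 to 0.19 for Emcn. Over all genes, the vehicle comparison gave 149 higher and 635 lower, 2308 and 3330 with no filter, 501 and 990 with DESeq2, 1 and 32 with limma, 131 and 1812 with library sizes alone, and 0 and 0 in edgeR on those 2 groups, where 3091 had an unadjusted p under 0.05. With no filter, 6346 were higher and 13092 lower with bleo in WT mice, in place of 5463 and 6375.

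Deviations of libraries with the same replicate number correlated between -0.155 and 0.103, and a library correlated best with its own number in 5 of 36 comparisons with another group, so the numbers were not taken as pairs. A replicate block gave 8, 8, 3, 1 and 3 called genes in the order above, and Flt1 with bleo in Pear1-/- mice lost its call (adjusted p = 0.0599). No other call among the 10 genes changed with the block.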
